A study of Mus musculus with 6 samples.

Results

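Nuclear ribosomal RNA gene copies were followed in mouse hearts with and without Elac2. They are the rows that the authors' deposited table types as rRNA, mitochondrial rRNA left out, selected on their raw counts, which had to sum to at least 30 over the 6 libraries. The members were thus chosen by their total over both groups and not by a difference between them. This rule took 92 of 354 nuclear rRNA rows in a table of 30638 features, and the 92 held 650160 counts, 99.9% of those of all nuclear rRNA rows. The libraries came from total RNA of whole hearts of C57BL/6 mice and were size-selected for inserts of 15 to 100 nt. The 3 control mice carry a loxP-flanked Elac2 exon without cre (L/L, labelled Elac2 +/+). The 3 knockout mice carry the same alleles with cre (L/L, cre, labelled Elac2 -/-), driven by the muscle creatine kinase promoter, so cells of the heart other than muscle keep the gene. Elac2 encodes the long form of RNase Z, the endonuclease that matures the 3′ ends of nuclear and mitochondrial tRNAs. Elac2 mRNA and the age of the mice were not analysed here.

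The ribosome's large subunit holds the 28S, 5.8S and 5S rRNAs, and the small subunit holds the 18S rRNA. RNA polymerase I makes the 18S, 5.8S and 28S rRNAs in the nucleolus from one long precursor. The 5S rRNA is made apart from them by RNA polymerase III, from tandem gene arrays whose promoter lies inside the transcribed sequence, and mammalian genomes hold many dispersed 5S copies and pseudogenes besides. A mature 5S rRNA is longer than the longest insert kept here, and 91 of the 92 members are annotated at more than 100 nt, so an insert of the kept size spans only part of such an RNA.

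The label of nuclear rRNA gene copies held mainly for 5S. By sequence, 90 members matched best the most frequent annotated sequence, taken as 5S. The other 2 matched n-R5-8s1, annotated as 5.8S, and n-R5-8s1 is itself 1 of these. Both queries come from these same rows, so rows that carry a query matched themselves. No member was left without a match or typed as 18S or 28S, and no 18S or 28S sequence was searched. Of the 5S members, 51 form an array on chromosome 8 (GRCm38, chr8:123538786-123623745, minus strand), spaced by 1665 to 1727 nt, which lies in introns of Gm20388 on the opposite strand. All 51 array rows passed the count of 30, and they held 88.5% of the members' counts. The 41 other members (39 of 5S and 2 of 5.8S type) are spread over 20 chromosomes. RefSeq types 58 of the 92 as rRNA and 8 as pseudogenes, and 26 have no RefSeq entry. Just inside the limit, n-R5s40 had a summed count of 30 and n-R5s15 one of 33, and just outside it n-R5s210 and n-R5s215 had 24 each.

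The array holds 11 distinct sequences. The most frequent, here called the array sequence, is shared by 32 copies, among them Rn5s (chr8:123598158-123598276), and is 119 nt long. Of the other 10 sequences, 4 differ from it in their 5′ part or middle (n-R5s136, n-R5s125, n-R5s106 and the shortened Gm23647), and 6 differ among their last 34 bases (n-R5s115, n-R5s102, n-R5s101, n-R5s114, n-R5s127 and n-R5s109, each named for the most abundant copy). Dispersed copies fall into the same kinds: n-R5s194, n-R5s2 and n-R5s33 keep the 3′ part of the array sequence, while n-R5s193, chosen after its values were seen, keeps its 5′ part. Among tested dispersed copies with at least 1 CPM in a group, those with the lowest and highest log2 fold changes that passed the test, n-R5s197, n-R5s5, n-R5s209 and n-R5s162, carry 11 to 15 differences each.

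Copies with the same sequence could not be told apart by their counts. The 32 copies of the array sequence had summed counts of 13553 to 13979. Within a library their coefficient of variation was 1.52% to 2.70%, against 1.61% to 2.85% from counting error alone. It exceeded counting error in control replicate 2 (2.35% against 1.83%) and, by less, in knockout replicates 1 and 2. In the other libraries it was below. A read that falls within this sequence has no single origin among the 32 rows, and they are not 32 independent measurements.

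Counts followed how far a copy matched the array sequence from its 3′ end. The 46 5S members whose last 55 or more bases are identical to it had summed counts of 8888 to 15683. The 44 with a shared 3′ run of 33 nt or less had at most 3462. Among these, the 13 with a run of 20 to 33 nt had at least 834, and the 31 with a shorter run had at most 688. Over the 58 5S members without the array sequence, Spearman's rho with count was 0.88 for the 3′ run and 0.47 for the 5′ run. For the share of 15-nt windows of the array sequence found anywhere in a copy, rho was 0.79. These points share libraries and reads, so rho is a description with no p, and the limits of 55, 33 and 20 nt were set after the values were seen.

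**Figure D1:**
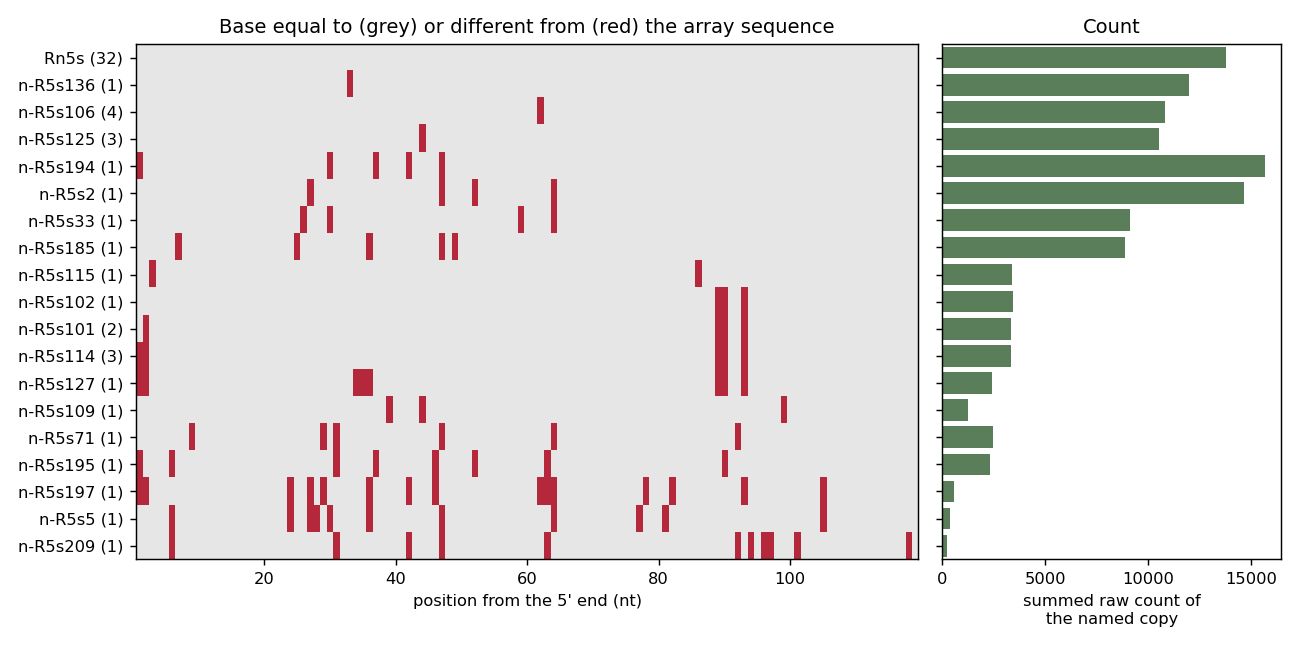
Positions (nt from the 5′ end) at which 19 5S sequences differ from the array sequence (red), with the number of members that share each sequence in brackets, and the raw count of the named copy summed over 6 libraries (bars). Copies with differences only in their first 64 bases, such as n-R5s194 with 15683 counts, stand above those with a difference among their last 34, such as n-R5s102 with 3462.

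The pair n-R5s194 and n-R5s193 gives an example of this contrast outside the array. n-R5s194 has the highest count of all members and n-R5s193 was picked after its values were seen, so the pair adds no separate support. n-R5s194 (chr3:4338998-4339116, plus strand) has 5 differences, all in its first 47 bases, shares its last 72 bases with the array sequence and had 15683 counts. n-R5s193 (chr4:149817732-149817840, plus strand) shares its first 90 bases with the array sequence, ends differently and had 688 counts. It overlaps Gm47301, a miRNA-type row, on the same strand.

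**Figure D2:**
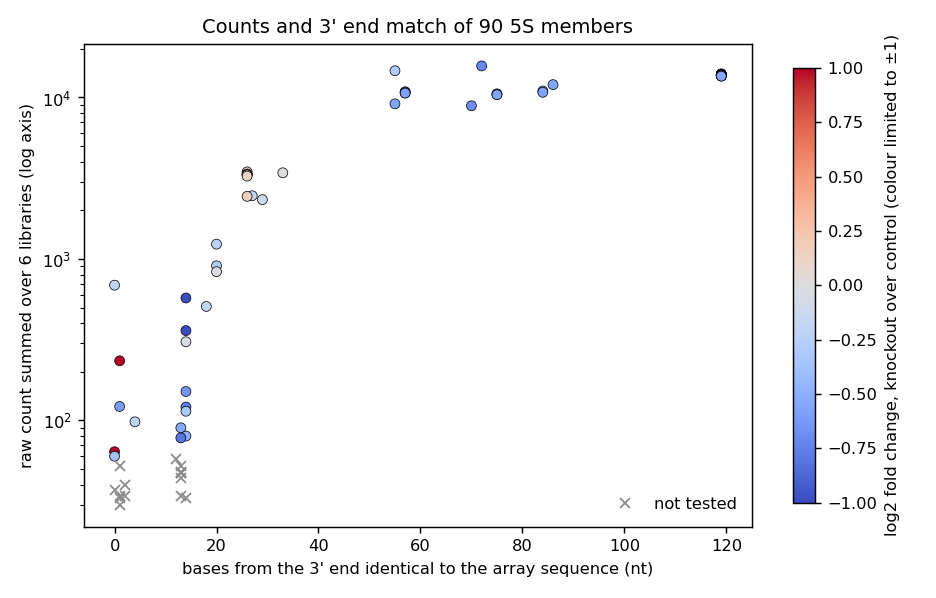
Raw count summed over 6 libraries (log axis) of the 90 5S members against the number of bases identical to the array sequence counted from the 3′ end (nt). Colour gives the log2 fold change of knockout over control, limited to ±1, and crosses are the members not tested. Members at 55 nt or more have 8888 counts or more and are blue (lower in knockout), and those at 20 to 33 nt lie between 834 and 3462 counts with values near 0.

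The 5S members together took a smaller share of the knockout libraries. Their summed share of all counts was 0.736%, 0.854% and 1.10% in the control hearts and 0.592%, 0.506% and 0.389% in the knockout hearts, given in replicate order as all values here. The groups did not overlap, and control replicate 1 and knockout replicate 1 were closest. The make-up of the libraries differed as well: snoRNAs and scaRNAs took 39.3% to 42.6% of control counts and 61.7% to 64.1% of knockout counts, and 4664 to 6018 features were detected in control against 2995 to 3160 in knockout. Their part in the smaller 5S share was not tested. The mean was 0.896% ± 0.184 (SD, n = 3) in control and 0.496% ± 0.102 in knockout. After scaling of the libraries by TMM, which assumes that most features do not change, the sum was 6461, 7816 and 9561 scaled CPM (counts adjusted for library size) in control and 6236, 6113 and 4369 CPM in knockout. The means were 7946 ± 1554 and 5573 ± 1045 CPM (SD, n = 3), a ratio of 1.43, which was smaller than that of the unscaled shares (1.81). With factors from snRNAs the log2 ratio of this sum changed sign, to 0.27 from -0.51. Array and dispersed 5S members had ratios of 1.43 and 1.41 on this scale. The dispersed sum rests on the 4 copies with an intact 3′ part, which hold 81.7% of its counts and had a ratio of 1.46, and the other 35 had one of 1.19. In whole hearts, fewer cells of a type and less RNA per cell cannot be told apart.

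Neither 5.8S member passed the test. n-R5-8s1, a 5.8S copy on chromosome 18 with 15023 summed counts, had 189, 140 and 163 scaled CPM in control and 159, 211 and 133 in knockout, and the groups overlapped. Its log2 fold change was 0.03 ± 0.21 (SE, adjusted p = 0.902). All log2 fold changes here are knockout over control from edgeR's quasi-likelihood test on 1144 features, with p-values adjusted by Benjamini-Hochberg over all of them. The second 5.8S member, Gm24601 (chr6:94826781-94826923, minus strand), had 5.91, 3.1 and 5.24 scaled CPM in control and 5.95, 7.35 and 5.11 in knockout, and its log2 fold change was 0.37 ± 0.28 (adjusted p = 0.293). Neither passed DESeq2, and neither had an unadjusted p under 0.05. As a percentage of the 5S counts of the same library, which no scaling enters, n-R5-8s1 was at 2.93, 1.79 and 1.71 in control and at 2.55, 3.46 and 3.05 in knockout. Control replicate 1 lay inside the knockout range.

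Of the 92 members, 77 passed the filter on low counts and were tested, and 15 of these fell and 2 rose at an adjusted p under 0.05. Over all 1144 features 50.2% passed, 27.0% lower and 23.2% higher, so both shares of the members lay below the background. Signs were less even: 66 of the 77 had a negative log2 fold change, with a median of -0.53 against -0.01 over all tested features. All 32 copies of the array sequence are among the 66 and are not independent. This count and median therefore repeat 1 sequence in large part. The 15 members that were not tested had summed counts of 30 to 58. With a filter that kept every row of 30 or more counts, 9 of these 15 had a negative log2 fold change and the lowest of their adjusted p-values was 0.0527. Groups did not overlap in scaled CPM for 45 of the 92 members with knockout lower (27 array-sequence copies) and for 2 with knockout higher. Over all 1567 features with a summed count of 30 or more, this held for 38.4% and 24.5%.

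The 15 members that fell were 10 array copies and 5 dispersed ones. Of the array copies, n-R5s100, n-R5s110 and n-R5s122 carry the array sequence, n-R5s118 and n-R5s130 share the sequence of n-R5s106, Gm23647 and Gm24089 share another, and n-R5s125, n-R5s112 and n-R5s120 share the last. The dispersed members were n-R5s194, n-R5s33, n-R5s185, n-R5s197 and n-R5s5. Apart from n-R5s197 and n-R5s5, these members (13) all had a shared 3′ run of 55 nt or more.

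**Figure D3:**
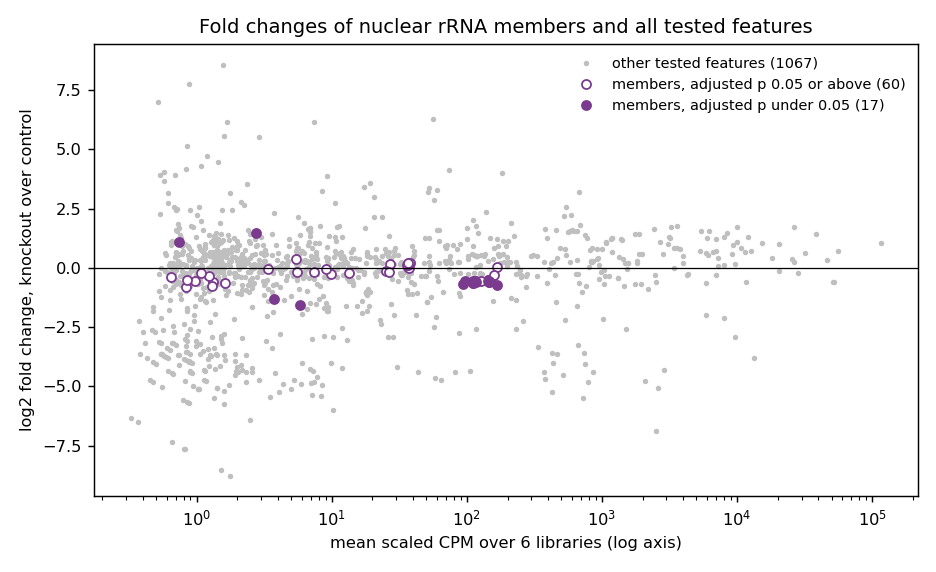
Log2 fold change (knockout over control) against mean scaled CPM over 6 libraries (log axis) for 1144 tested features, with the 77 tested members in purple (filled where adjusted p is under 0.05). The array copies with an intact 3′ part form a cluster near 100 CPM between -0.49 and -0.65, and 2 members, n-R5s209 and n-R5s162, lie above 1.

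The array sequence itself lay at the threshold. Averaged over its 32 copies, scaled CPM was 140, 169 and 211 in control and 136, 130 and 92.4 in knockout. The highest knockout value was just under the lowest control value. Log2 fold changes of the 32 copies ran from -0.59 to -0.49 with SEs of 0.21 to 0.23, and their adjusted p-values from 0.0445 to 0.086, with 3 under 0.05. Rn5s, named as the 5S gene, had 141, 169 and 214 CPM in control and 135, 128 and 90.7 in knockout, 1.48 times lower, with an adjusted p of 0.0528. When members of identical sequence were summed to 1 feature, the array sequence had a log2 fold change of -0.57 ± 0.20 (edgeR, adjusted p = 0.0384). In that fit 9 of 37 tested sequences fell and 2 rose, and the 9 cover 46 members, where 27.5% and 22.9% of the 1104 features of that fit did.

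These calls moved with single libraries. Without control replicate 1, 47 members fell (30.9% of all tested features did). Without control replicate 2 or 3, 4 and 2 members fell (25.4% and 24.1% of features). Without knockout replicate 1, 2 or 3, 2, 3 and 2 members fell (24.5%, 24.0% and 23.6% of features). Of these 6 fits, the members' share exceeded that of all features in the one without control replicate 1, the control with the lowest 5S sum.

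Scaling moved the members' calls too. With total counts alone 51 members fell (37.7% of all tested features), with RLE factors 34 (29.0%), with factors from miRNAs 34 (31.2%) and with factors computed without nuclear rRNA genes 18 (27.4%). With factors from snoRNAs and scaRNAs, 74 members fell and 0 rose, where 57.6% and 8.83% of features did. With factors from snRNAs, 1 member fell and 13 rose, where 18.8% and 48.3% of features did. DESeq2 called 46 members lower (29.0% of features). With no filter on low counts 2 members fell (7.65% of 9254 features), and with a filter at a summed count of 30 also 2 (30.2% of 1567). The authors' deposited table gave 91 of the 92 members an adjusted p, under which 10 fell and 1 rose, where 20.6% and 8.78% of its 2597 features did. The median log2 fold change of all features moved with the scaling, from -0.86 with snoRNA and scaRNA factors to 0.77 with snRNA factors.

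The median log2 fold change of the 32 array-sequence copies was -0.54 in the main fit, -1.38 with snoRNA and scaRNA factors and 0.24 with snRNA factors. Its distance from the median of all features was -0.52, and a change of scaling factors alone leaves that distance nearly fixed by construction. Other filters and left-out libraries moved the distance to -0.32 with the filter at a summed count of 30, -0.35 without control replicate 3, -0.36 without knockout replicate 3 and -0.67 without control replicate 1. With no filter the copies had a median of -0.17 and lay above the median of all 9254 features, at a distance of 1.46.

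Other array copies with an intact 3′ part had values near those of the array sequence. n-R5s136, with a single difference, had 128, 150 and 179 CPM in control and 116, 118 and 75.8 in knockout (log2 fold change -0.56 ± 0.22, adjusted p = 0.0554). n-R5s125, also with a single difference, fell from 113, 137 and 160 CPM to 92, 99.4 and 69 (adjusted p = 0.0232). n-R5s106, with another single difference, had 104.3, 139 and 168 CPM against 103.8, 97.3 and 77.5 (adjusted p = 0.0515). Gm23647, the shortened copy, fell from 118, 140 and 162 CPM to 98.8, 106 and 75.7 (adjusted p = 0.0348). In all 4 the groups did not overlap, and the gap between them was narrowest for n-R5s106. Over all tested features, 33.7% had non-overlapping groups with knockout lower. The 4 share most of their bases with the array sequence and with each other, so they are not independent cases.

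The 9 array copies with a difference among their last 34 bases gave other values. Their summed counts were 1235 to 3462, and their log2 fold changes ran from -0.22 to 0.23 with adjusted p-values of 0.431 to 0.97. Of these 9, 0 passed, 0 had an unadjusted p under 0.05, and 0 passed DESeq2. n-R5s114, with 5 differences, had 35, 31.8 and 39.8 CPM in control and 40.6, 42.3 and 31 in knockout. n-R5s102, with 3, had 32.2, 31.8 and 42.4 CPM against 47.4, 41.8 and 33.3. In both the groups overlapped.

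**Figure D4:**
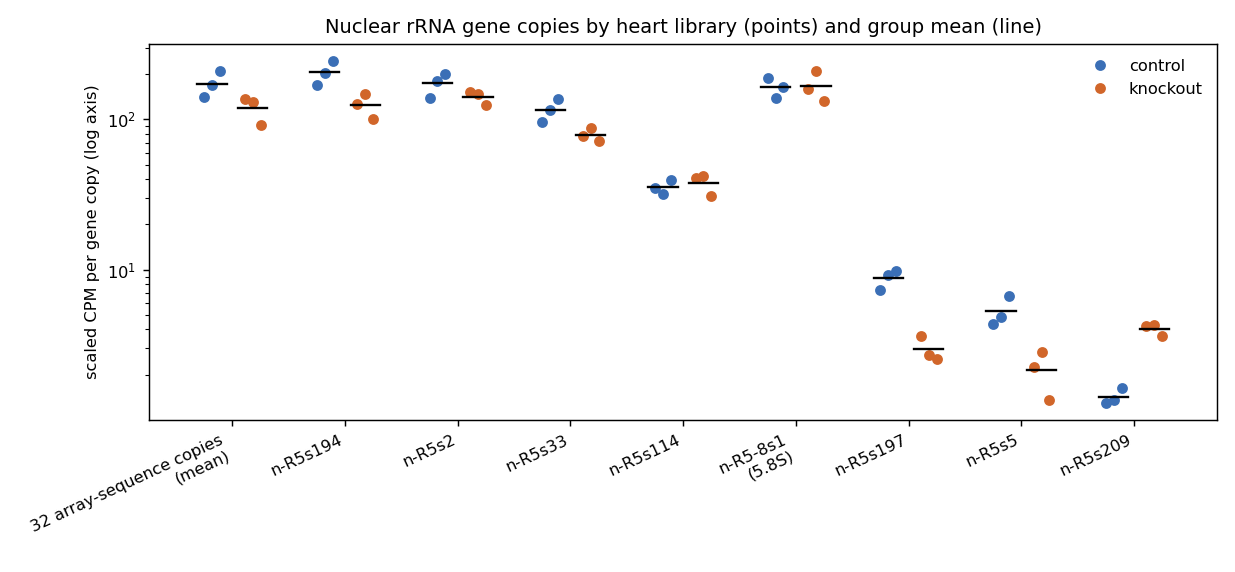
Scaled CPM per gene copy (log axis) in each of 3 control (blue) and 3 knockout (orange) hearts, with the group mean as a line, for the 32 array-sequence copies and 8 named members. Control points lie above knockout points for the array sequence, n-R5s194, n-R5s33, n-R5s197 and n-R5s5, below them for n-R5s209, and mixed with them for n-R5s2, n-R5s114 and n-R5-8s1.

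Ratios within a library need no scaling and showed the same split of the array. They use the same counts as the fold changes and limits set after the values were seen, so they add no separate support. Copies of the sequence of n-R5s114 had 23.1%, 18.4% and 19.4% of the mean count of the array-sequence copies in control libraries and 29.6%, 33.4% and 34.6% in knockout libraries. n-R5s102 had 23%, 18.8% and 20.1% against 34.8%, 32.3% and 36.1%. n-R5s115, with a single difference outside its first 3 bases, had 24%, 20.4% and 21% against 30.1%, 32.5% and 30.8%. All 9 copies together went from 18.6% ± 1.71 (SD, n = 3) to 28.9% ± 1.54, 1.55 times higher. All 6 of their sequences had non-overlapping groups with knockout higher. Of the 9 copies, 7 have the same shared 3′ run of 26 nt, so the 6 sequences are not independent cases. Over all 1144 tested features the same ratio to the array-sequence mean had non-overlapping groups with knockout higher in 40.2% and lower in 21.9%. The other 10 array copies, with a shared 3′ run of 57 to 86 nt, were at 79.7% ± 1.93 in control and 77.3% ± 3.78 in knockout, and their groups overlapped. Both kinds of copy share most of their bases with the array sequence, and reads from the shared stretches have no single origin.

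**Figure D5:**
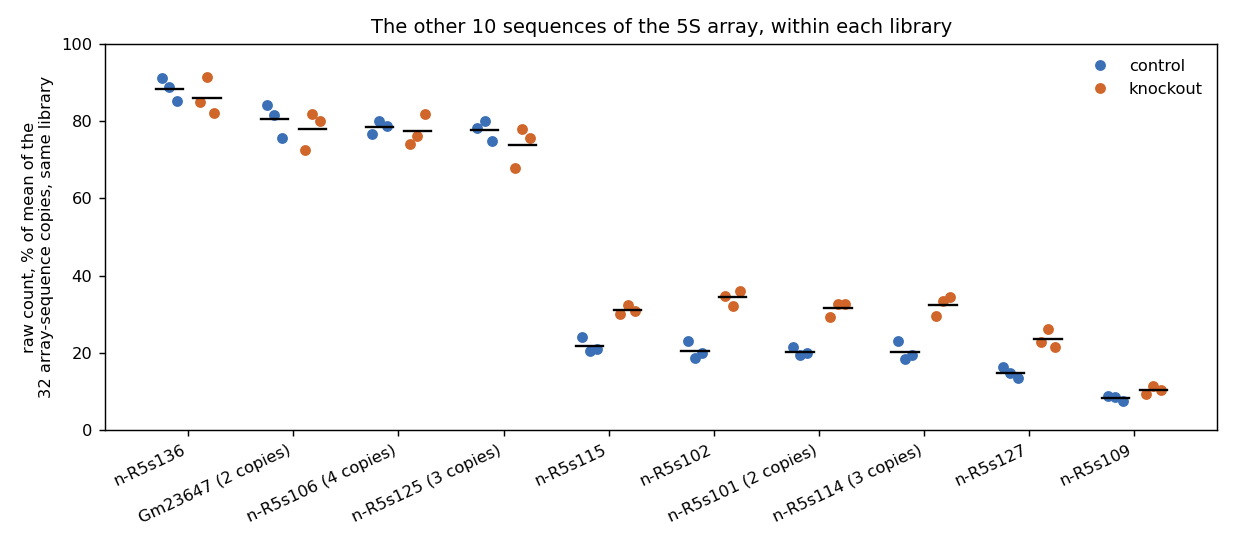
Raw count as a percentage of the mean of the 32 array-sequence copies of the same library, for the other 10 sequences of the array, with 3 control (blue) and 3 knockout (orange) points and the group mean as a line. The 4 sequences on the left stay at 67.8% to 91.4% with overlapping groups. The 6 on the right, which differ among their last 34 bases, are at 7.67% to 24% in control and at 9.34% to 36.1% in knockout.

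Of the 4 dispersed copies with an intact 3′ part, n-R5s194 and n-R5s2 had summed counts above those of every array copy, and n-R5s33 and n-R5s185 had fewer than any array copy with an intact 3′ part. n-R5s194 fell from 170, 203.4 and 244 CPM in control to 127, 148 and 101 in knockout, 1.64 times lower (log2 fold change -0.72 ± 0.21, adjusted p = 0.014), and the groups did not overlap. Its adjusted p was 0.0727 without control replicate 3, 0.0546 without knockout replicate 1 and 0.083 without knockout replicate 3. n-R5s33 (chr16:33001903-33002021, plus strand, in an intron of Lrch3) fell from 96.1, 115 and 136 CPM to 77.1, 87.3 and 71.3 (log2 fold change -0.56 ± 0.20, adjusted p = 0.0339). n-R5s185 (chr4:53860652-53860770, plus strand) overlaps an exon of Tmem38b on the same strand, so reads of either gene could be counted there. It fell from 80.4, 143 and 122 CPM to 83.6, 77.2 and 55 (adjusted p = 0.0399), although control replicate 1 lay below knockout replicate 1. n-R5s2 (chrX:6106891-6107009, plus strand) had 139, 181 and 201 CPM against 153, 147 and 124, overlapping groups and an adjusted p of 0.237.

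Among tested members with at least 1 CPM in a group, the largest changes were in dispersed copies of low count that match the array sequence poorly. n-R5s197 (chr3:88906510-88906628, plus strand), which RefSeq types as a pseudogene, lies in an intron of Gon4l on the same strand. It fell from 7.34, 9.23 and 9.72 CPM to 3.63, 2.69 and 2.56, 2.96 times lower (log2 fold change -1.56 ± 0.25, adjusted p = 0.000277). n-R5s5 (chrX:18323444-18323562, minus strand), another pseudogene in RefSeq, fell from 4.35, 4.84 and 6.66 CPM to 2.25, 2.85 and 1.35, 2.46 times lower (-1.30 ± 0.31, adjusted p = 0.00402). In both, every control value was above every knockout value. n-R5s29 (chr17:78858934-78859052, plus strand), which overlaps an exon of Eif2ak2 on the opposite strand, had the next lowest log2 fold change, -0.80 ± 0.37, and an adjusted p of 0.0902.

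n-R5s209 (chr1:26959103-26959221, minus strand), a pseudogene in RefSeq, rose from 20, 24 and 30 raw counts in control to 58, 54 and 48 in knockout. In scaled CPM these are 1.3, 1.35 and 1.64 against 4.21, 4.27 and 3.61, 2.8 times higher (log2 fold change 1.49 ± 0.25, adjusted p = 0.000449). n-R5s162 (chr6:60250792-60250910, plus strand) rose from 7, 5 and 12 raw counts to 13, 12 and 15 (1.10 ± 0.40, adjusted p = 0.0411), and its adjusted p was 0.051 to 0.132 when any single library but control replicate 3 was left out. Against the array-sequence copies of the same library, n-R5s197 went from 5.11% ± 0.444 to 2.5% ± 0.375 and n-R5s5 from 3.05% ± 0.157 to 1.77% ± 0.379. n-R5s209 went from 0.835% ± 0.0815 to 3.43% ± 0.424 (SD, n = 3 each). In these 3 ratios, which no scaling enters, the groups did not overlap. Over all tested features 40.2% had such a ratio higher and 21.9% lower in knockout with no overlap. The 3 members were picked for extreme fold changes in the same counts, so this adds no separate support.

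No 18S or 28S row is among the members, but an 18S-related row outside them was abundant. CT010467.1, an rRNA-type row on chromosome 17 (chr17:39846353-39848827, minus strand), had 6 counts. It overlaps Gm42418, a lincRNA-type row that RefSeq lists under an 18S-related pseudogene, named here after its values were seen. Gm42418 fell from 12094, 10047 and 16819 CPM to 3303, 4127 and 1498 (log2 fold change -2.13 ± 0.32, adjusted p = 0.000204).

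Of 17 RNAs that act in pre-rRNA processing, 9 were tested, and 6 rose (median log2 fold change 1.06), against 23.2% of all tested features. All 6 are snoRNAs (4 Snord14 and 2 Snora73 copies), a class whose share of all counts was higher in every knockout library. Snord14d, a U14 snoRNA needed for 18S maturation, rose from 441, 476 and 446 CPM to 1336, 1032 and 919 (1.27 ± 0.18, adjusted p = 0.000129). Rmrp, the RNA of RNase MRP, which cuts the pre-rRNA upstream of 5.8S, had 463, 338 and 377 CPM against 598, 508 and 479 (0.43 ± 0.18, adjusted p = 0.0691). Of the 2 guides of 5.8S methylation, Snord96a rose (0.86 ± 0.14, adjusted p = 0.000349) and Snord71 had a log2 fold change of 0.21 ± 0.14 (adjusted p = 0.226).

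Of 11 other transcripts of RNA polymerase III, the polymerase of the 5S genes, 8 were tested and 6 fell (median log2 fold change -1.34), against 27.0% of all tested features. Rn7sk, which holds back transcription elongation, fell from 989, 1605 and 1971 CPM to 69.6, 59 and 35.4 (-4.80 ± 0.33, adjusted p = 8.28e-07). Rny1, a Y RNA, fell from 1305, 1725 and 1945 CPM to 381, 403 and 348 (-2.14 ± 0.19, adjusted p = 4.11e-06). Rmrp, which is in this list too, and Rpph1 did not fall. Rmrp had 0.43 ± 0.18 (adjusted p = 0.0691), with every knockout value above every control value. Rpph1 had 0.14 ± 0.19 (adjusted p = 0.577). Both mitochondrial rRNAs fell, mt-Rnr1 by 0.77 ± 0.20 and mt-Rnr2 by 0.62 ± 0.15 on the log2 scale (adjusted p = 0.00739 and 0.00455). Of 45 tested snRNA rows 24 fell, against 27.0% of all tested features, among them Gm25313 (-1.03 ± 0.27, adjusted p = 0.00771), while Rnu7 had 0.19 ± 0.20 (adjusted p = 0.449). Several snRNA rows had near-equal values, such as Rnu1a1 and Gm22634 (means of 24.7 and 24.3 CPM in control, 11.6 and 11.7 in knockout). Such rows may not be independent, and whether they share reads was not tested.

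Libraries held 13510061 to 16248673 counts. Fragments of mitochondrial mRNA made up 0.812% to 2.11% of control counts and 0.0659% to 0.0997% of knockout counts. Processed pseudogenes made up 0.0402% to 0.1% against 0.00509% to 0.00689%. Both shares moved with the groups, and whether they reflect RNA breakdown was not tested. Of 7 miRNA markers of heart muscle, all tested, 2 fell and 1 rose, against 27.0% and 23.2% of all tested features. Their sum was 117767 to 147949 CPM in control and 72626 to 93228 in knockout. The 2 that fell, Mir1a-2 and Mir1a-1, held most of this sum. Their means were 62317 and 62211 CPM in control and 40704 and 41769 in knockout. These near-equal rows, like those of both Mir133a genes, may not be independent, and whether they share reads was not tested. Mir208b rose (log2 fold change 0.79, adjusted p = 0.0399), and both Mir133a genes, Mir499 and Mir208a did not pass the test. Markers of blood and immune cells (5 of 8 tested, Mir223 and Mir155 at 0) and of endothelium (1 of 1) had sums whose groups overlapped. So did those of smooth muscle and fibroblasts (3 of 5, Mir199a-2 and Mir214 at 0). Single markers of these lists passed the test: Mir486 and Mir150 fell (log2 fold change -0.67 and -0.59, adjusted p = 0.00496 and 0.0368), and Mir144 and Mir199a-1 rose (0.85 and 0.79, adjusted p = 0.0353 and 0.00183). The part of these differences in the 5S result was not tested.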

How the data were processed

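Small RNA counts of 3 control and 3 knockout hearts were compared. The authors deposited raw counts per feature and normalized counts, a signal equal to the count divided by 1 size factor per library. Per the file headers, their comparison table gives log2 fold changes, p-values and a Wald score. The tools named per the submitters' processing notes are Bowtie2 2.2.9, featureCounts 1.5.1, cutadapt 1.14 and DESeq2 1.16.1, with build mm10. Not given in the sources used here are the counting of reads with several alignments, the strand setting, the annotation and the merging of 4 technical replicates. Rows of near-identical or overlapping rRNA copies are therefore uncertain.

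Features kept by filterByExpr (minimum count 10, minimum total 15) were scaled by TMM and tested with edgeR 4.0.16 (glmQLFit, glmQLFTest), called at an adjusted p under 0.05. Libraries were distinct (lowest chi-square per degree of freedom 84.0). Positions came from GENCODE M21 (GRCm38), whose transcripts were also compared with each other (the sequences are not reported here), RNA types also from RefSeq (GRCm38.p6), and rRNA kinds from BLASTN 2.17.0. A shared run was counted base by base from one end. Alternatives were other scalings, filters, DESeq2 1.42.0, a replicate block, each library left out, identical sequences summed and a member minimum of 100.

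The members and lists were chosen with earlier results of these data known. Named were the 20 most abundant members (17 of them copies of the array sequence, described together), the 3 largest and 3 smallest fold changes among members with at least 1 CPM in a group, both 5.8S members, those at the count limit and 2 genes per list. Array copies of other sequences, n-R5s33, n-R5s185, n-R5s193, Gm42418, Rpph1 and the single miRNA markers were named after their values were seen.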

Additional observations from a re-analysis of the deposited data

How the results depend on the processing

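Against 15 members that fell and 2 that rose, 51 and 1 did with total counts alone, 34 and 2 with RLE factors, 34 and 1 with miRNA factors, 74 and 0 with snoRNA and scaRNA factors, 1 and 13 with snRNA factors, 2 and 2 with no filter and with the filter at a summed count of 30, 46 and 1 with DESeq2, and 18 and 1 with factors computed without nuclear rRNA genes, chosen after seeing the data. The shares of all features that fell under these settings are given above. Those that rose were 14.9% with total counts alone, 22.4% with RLE factors and 16.6% with miRNA factors. They were 4.68% with no filter, 26.2% with the filter at 30, 21.0% with DESeq2 and 20.8% with factors without nuclear rRNA genes. With identical sequences summed, 9 sequences fell, and with a member minimum of 100, 1 member rose. Leaving out 1 library gave 2 to 47 that fell and 1 to 2 that rose, where 23.6% to 30.9% and 18.4% to 25.3% of features did. With the replicate block, 3 fell and 1 rose, where 25.7% and 21.2% of features did. Same-numbered libraries had correlations of -0.13, -0.02 and -0.19 in their deviations from the group means, which gave no sign of pairing by replicate number. With 3 libraries a group, these correlations cannot exclude a shared origin of same-numbered mice. The log2 ratio of summed 5S counts, -0.51, was -0.85 with total counts, -1.36 with snoRNA and scaRNA factors and 0.27 with snRNA factors. That of 5.8S, 0.04, was -0.31, -0.80 and 0.77. Leaving out 1 library gave -0.64 to -0.36 for 5S and -0.15 to 0.18 for 5.8S. Of the transcripts of ribosome production and RNA polymerase III, with the 2 mitochondrial rRNAs counted in, 8 fell and 7 rose. With snRNA factors 3 fell and 12 rose, and with snoRNA and scaRNA factors 3 rose. Over all tested features 27.0% fell and 23.2% rose in the main fit. These shares were 18.8% and 48.3% with snRNA factors, and 57.6% and 8.83% with snoRNA and scaRNA factors. Of snRNA rows 24 fell and 0 rose (0 at an unadjusted p under 0.05 and 0 by DESeq2), against 41 that fell with snoRNA and scaRNA factors, and 8 that fell and 5 that rose with snRNA factors. With snRNA factors the log2 fold change changed sign for Gm25212 (0.22), n-R5s142 (0.23), Rn5s (0.22), n-R5s122 (0.20), n-R5s100 (0.19), n-R5s110 (0.23), n-R5s136 (0.21), Gm23647 (0.21), n-R5s106 (0.24), n-R5s125 (0.14), n-R5s115 (0.76), n-R5s194 (0.078), n-R5s2 (0.51), n-R5s33 (0.24), n-R5s185 (0.13), mt-Rnr1 (0.037) and mt-Rnr2 (0.18). With snoRNA and scaRNA factors it did for n-R5s102 (-0.65), n-R5s101 (-0.79), n-R5s114 (-0.75), n-R5s127 (-0.69), Gm24601 (-0.48), n-R5-8s1 (-0.81), Rmrp (-0.43), Snord71 (-0.63) and Rnu7 (-0.65). It also did for n-R5s2 with no filter (0.076) and Snord71 with total counts (-0.13). n-R5s197 kept its direction and its call under all 16 alternatives of its fit. n-R5s5 lost its call with snRNA factors (adjusted p = 0.198) and n-R5s209 with snoRNA and scaRNA factors (adjusted p = 0.053), each under 1 of 16. The cause of these changes was not tested. With 3 hearts a group, fold changes near 1.5 lay at the edge of what the test called.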

Other observations

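The authors' deposited table lists a negative log2 fold change for 74 of the members. n-R5s185, which had 8888 raw counts and fell here, is listed there with a mean of 0, as are 100 features with a summed raw count of 30 or more. For n-R5s194 the authors' deposited table gives a log2 fold change of -0.67 (adjusted p = 0.00879), and for Rn5s -0.52 (adjusted p = 0.0615).

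Relative to the array sequence of the same library, n-R5s2 and n-R5s194 had opposite orders of the groups. The raw count of n-R5s2 was at 99%, 107% and 95.1% of the mean of the array-sequence copies in control and at 113%, 114% and 134% in knockout, and the groups did not overlap. n-R5s194 was at 122%, 120% and 116% in control and at 93.4%, 114% and 110% in knockout, again with no overlap. Over the tested features, 40.2% had such a ratio higher and 21.9% lower in knockout with no overlap. Neither difference was tested.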
